A study of Homo sapiens with 8 samples.

Results

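The interleukin 6 family of cytokines, receptors and signal carriers was followed in tumours of T24, an established human bladder cancer line grown in mice, with or without enforced expression of DDR1, a receptor tyrosine kinase for collagen. The set held 9 genes, taken by symbol from the 58302 genes of the count table: the ligands IL6, IL11 and LIF, the receptor chains IL6R, IL6ST, LIFR and OSMR, the transcription factor STAT3 and its feedback inhibitor SOCS3. All 9 had enough counts to be tested. RNA was sequenced from 4 tumour libraries of control T24 cells and 4 of DDR1 overexpressing T24 cells. The sources used here do not say what the control cells carried, which promoter drives DDR1, how many clones were used, or the strain, age and immune cells of the host mice. A title prefix, whose meaning is not stated, is shared by DDR1 replicates 2, 3 and 4, and another by control replicates 3 and 4. Libraries are treated as independent samples, although the labels do not tie each to its own animal, so p-values measure the spread between these libraries only. All DDR1 libraries name sequencing lane 8, while 2 controls name lane 7 and the other 2 name none, so lane and group cannot be told apart.

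Cytokines of this family signal through gp130, the shared chain made from IL6ST. IL6 and IL11 first bind their own receptor chains and then draw in gp130, whereas LIF signals through LIFR with gp130, and oncostatin M through OSMR or LIFR with gp130. The paired chains activate JAK kinases, which phosphorylate STAT3, and STAT3 induces SOCS3, which blocks the receptor complex again. In epithelial tumours these cytokines are known from both tumour cells and stroma, and are induced by inflammatory signals such as interleukin 1.

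Each library held between 13716285 and 32271031 expected counts, and levels are given as CPM, counts scaled to library size. DDR1 itself had a mean of 152 ± 42.3 CPM (control) and 435 ± 274 CPM (DDR1; SD, n = 4), a log2 fold change of 1.52 (SE 0.43, unadjusted edgeR p = 0.00612, adjusted p = 0.9998, exact permutation p = 0.0571). At 159 CPM, the library labelled DDR1 replicate 1 lay within the controls, which ran from 110 to 210 CPM, and so goes against its label. Leaving it out turned the sign of 3 members whose change was near 0: IL6ST to 0.04, SOCS3 to 0.07 and STAT3 to -0.04. The keratins KRT5, KRT7, KRT8, KRT18 and KRT19 were abundant in every library. The summed level of the 14 tumour cell markers ran from 2410 to 7770 CPM, of which KRT5 alone held 707 to 4010 CPM. CDH1 ran from 3.65 to 167 CPM and EPCAM from 6.72 to 86 CPM. The urothelial genes UPK1B, UPK2, UPK3A and KRT20 had at most 45 counts in any library, while GATA3 had 28 to 183. The tumours grew in mice while the counts are of human genes. The marker lists that follow thus give no measure of the host's own leukocytes, fibroblasts or vessels. Of 13 leukocyte markers, 7 stayed below 10 counts in every library, among them the pan-leukocyte gene PTPRC, and C1QA was at 0 throughout. The other markers of that list reached higher counts, with 186 to 925 for the macrophage gene CD68, 29 to 143 for CD14 and 7 to 2383 for S100A8. All 4 tested leukocyte markers were higher in the DDR1 group (median log2 fold change 0.56, 0 at an unadjusted edgeR p under 0.05). Among the untested ones, ITGAM, PTPRC, LYZ, TYROBP, CD3E, CD163 and MS4A1 had lower means there and C1QB a higher mean. S100A8 was 0.62 by edgeR and -0.25 by limma-voom. Sums over the list were 18.6 to 57.6 CPM (control) and 34 to 98.8 CPM (DDR1). Of 10 fibroblast markers 7 were tested, 6 of them lower (median -0.39), with sums of 26.6 to 135 CPM (control) and 16.5 to 79.2 CPM (DDR1). Of 7 endothelial markers 3 were tested, all higher (median 0.66), with sums of 8.7 to 56.4 CPM (control) and 9.28 to 76.5 CPM (DDR1). Of 13 mitochondrially encoded genes 12 were higher (median 0.21), with sums of 9740 to 21200 CPM (control) and 14600 to 19600 CPM (DDR1). All 14 genes of a chosen list of cytosolic ribosomal proteins were higher in the DDR1 group. At an unadjusted edgeR p under 0.05 stood 7 of them, beside 4.17% of all genes tested in either direction. The groups did not overlap for 5 of the 14, beside 2.40% of all genes tested. Sums were 6230 to 7510 CPM (control) and 8000 to 11800 CPM (DDR1). The part of these lists in the members' levels was not tested. In bulk tumours, fewer cells of a type and less RNA per cell cannot be told apart.

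No member of the family passed the test between DDR1 and control tumours. With edgeR's quasi-likelihood test, 0 of 9 members and 0 of all 18973 genes tested (0%) had an adjusted p under 0.05. At an unadjusted p under 0.05 stood 1 of the 9, LIF, beside 791 of all genes tested (4.17%); in LIF's direction, lower in the DDR1 group, the share of all genes was 2.24%. DESeq2 called 15 of 18174 genes with an adjusted value (0.0825%), none of them a member. The groups did not overlap for 0 of 9 members and for 2.40% of all genes tested. The members' median log2 fold change of DDR1 over control was -0.10, beside -0.00298 over all genes tested, with 6 members lower and 3 higher.

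**Figure D1:**
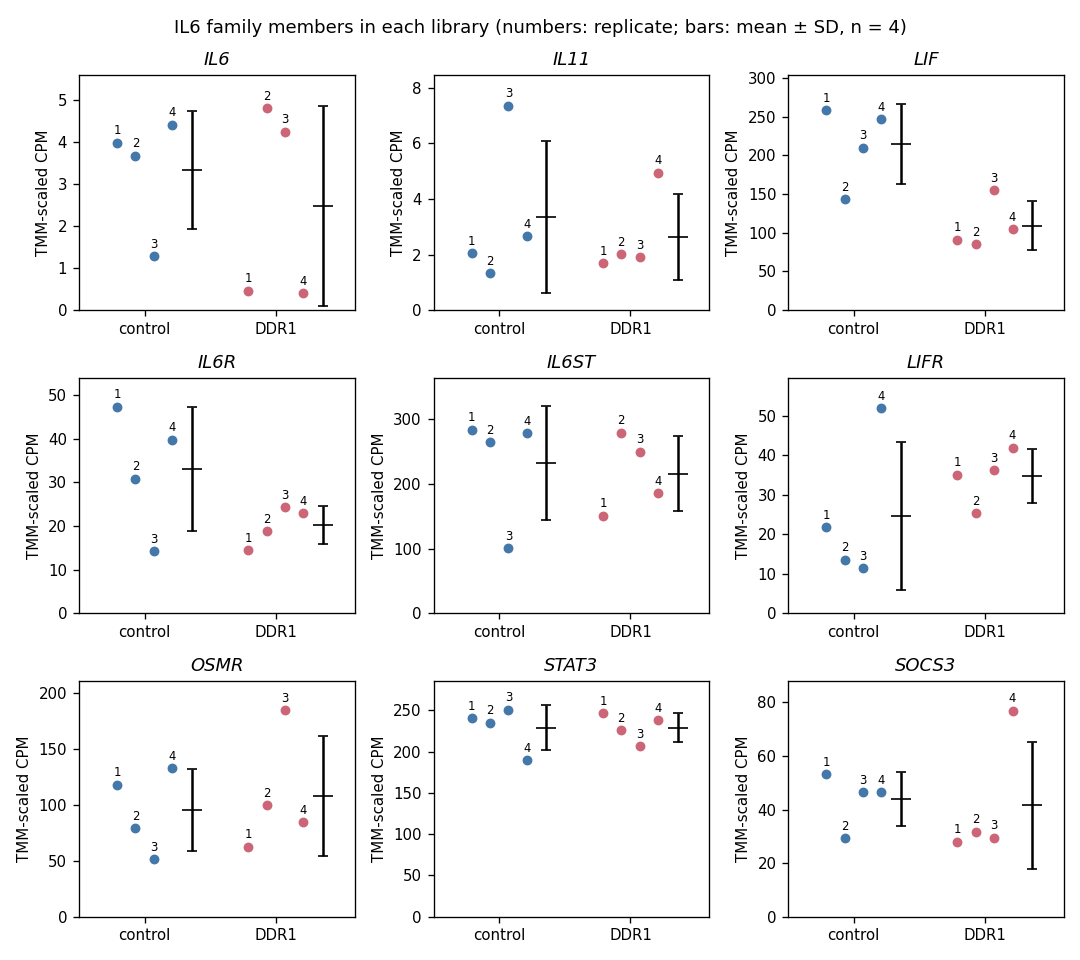
Level of each of the 9 members in TMM-scaled CPM (vertical axes, linear from 0) for the 4 control and 4 DDR1 libraries. Points are libraries with their replicate numbers, and black bars give the mean ± SD of the group. LIF lies between 143 and 258 CPM in controls and between 85.5 and 155 CPM in the DDR1 group, and the points of the groups overlap for every member.

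Per kilobase of exon, LIF had the highest mean over the 8 libraries and IL11 the lowest. LIF was the highest member in 5 of 8 libraries, and IL11 was the lowest in 5 and IL6 in the other 3. By group, LIF held 54 ± 13.1 CPM per kb (control) and 27.5 ± 7.97 CPM per kb (DDR1), and STAT3 held 26 ± 3.06 and 26 ± 1.96 CPM per kb. Over all libraries LIF stood at 40.8 ± 17.4 CPM per kb, STAT3 at 26 ± 2.40 and IL6ST at 24.1 ± 7.47 (SD over 8 libraries). SOCS3 followed with 15.6 ± 6.19 CPM per kb and OSMR with 14.2 ± 6.01. The receptor genes IL6R and LIFR held 4.13 ± 1.85 and 2.50 ± 1.19 CPM per kb, and the cytokines IL6 and IL11 held 1.41 ± 0.901 and 1.12 ± 0.781. In this order only OSMR and IL6R were separated by more than their SDs, and the ranges over libraries overlapped for every pair of neighbours. The tumours thus held much LIF transcript next to little IL6 and IL11 transcript, and the common chain IL6ST stood above both IL6R and LIFR. The oncostatin M gene OSM had 1 or 2 counts in each library, so the ligand of the well expressed OSMR was close to undetected among human transcripts.

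**Figure D2:**
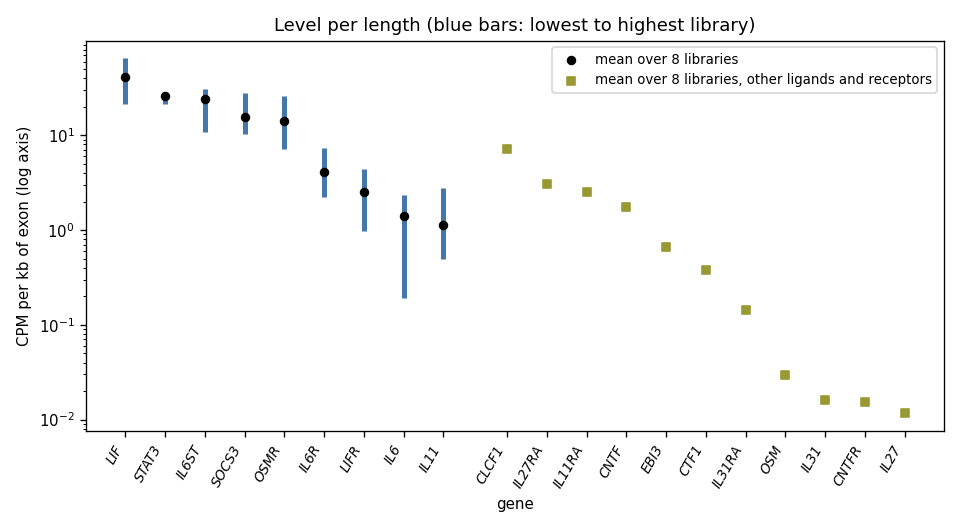
Level per gene in TMM-scaled CPM per kilobase of exon on a log axis, with the 9 members at left and other ligands and receptors of the family at right. Black points are means over 8 libraries, blue bars run from the lowest to the highest library, and squares are means of the other genes. LIF has the highest mean at 40.8 CPM per kb.

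LIF, a cytokine that signals through LIFR and gp130, was the member with the smallest p (ENSG00000128342, GRCh38 chromosome 22, 30240447 to 30246851, minus strand). The control libraries held 258, 143, 210 and 247 CPM in the order of replicates 1 to 4, and the DDR1 libraries 91.1, 85.5, 155 and 105 CPM. The 3 lowest libraries were DDR1 replicates 2, 1 and 4, and the groups overlapped only because DDR1 replicate 3 lay above control replicate 2. Group means were 215 ± 52 CPM (control) and 109 ± 31.7 CPM (DDR1; SD, n = 4), a 1.96-fold lower mean. This was a log2 fold change of -0.97 (SE 0.25) with an unadjusted edgeR p of 0.00328, which adjusted over all genes was 0.9998. DESeq2 gave an unadjusted p of 0.000463 and an adjusted p of 0.196, and over 19 alternatives the adjusted p ran from 0.1958 to 1.0. By exact permutation of the libraries (two-sided, on log2 CPM) p was 0.0571, and the 70 orderings cannot give less than 0.0286. Without the library labelled DDR1 replicate 1 the log2 fold change was -0.90, and it lay between -1.19 and -0.86 with any 1 library left out. LIF overlaps 2 antisense genes, of which AC004264.1 held 2.47 CPM, and the protocols do not mention strand.

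IL6, the founding cytokine of the family (ENSG00000136244, chromosome 7, 22725884 to 22732002, plus strand), was scarce and the most variable member. Controls held 3.99, 3.68, 1.29 and 4.42 CPM and DDR1 libraries 0.46, 4.81, 4.25 and 0.40 CPM, from 30 to 88 counts per control library and from 8 to 152 per DDR1 library. The highest library stood 12-fold above the lowest, and both extremes lay in the DDR1 group. IL6 was low in control replicate 3 and DDR1 replicates 1 and 4 and between 3.68 and 4.81 CPM in the other 5 libraries. The log2 fold change was -0.42 (SE 0.78, unadjusted edgeR p = 0.602, exact permutation p = 0.4); limma-voom gave -1.03. It was -0.07 without DDR1 replicate 1 and -0.97 without DDR1 replicate 2. On the other strand IL6 shares 46 exon bases with STEAP1B, at a mean of 0.424 CPM, and 428 with AC073072.1, at 0.0531 CPM. Its lowest values are therefore uncertain. IL11 (ENSG00000095752, chromosome 19, 55364389 to 55370463, minus strand), which shares gp130 with IL6 but binds its own receptor chain, had another order. Its levels were 2.05, 1.34, 7.36 and 2.67 CPM in controls and 1.7, 2.02, 1.9 and 4.95 CPM in DDR1 libraries. IL11 was thus highest in control replicate 3 and DDR1 replicate 4, which are among the libraries with little IL6. Between groups it differed by -0.35 on the log2 scale (SE 0.57, unadjusted edgeR p = 0.548, exact permutation p = 0.686), and by 0.39 without control replicate 3.

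The stretches before the transcription starts of IL6 and IL11 are shown from RefSeq (GRCh38.p14), 5′ to 3′ along the gene. Of the 9 members, 8 had an entry in that promoter table. In the 250 bases before each start, 3 motifs were searched on both strands: the STAT site TTCNNNGAA, the AP-1 site TGANTCA and the kappa B site. Capitals mark a match. The IL6 stretch is chr7:22726950-22727146 on the plus strand, with 53 bases nearer the start left out because GENCODE places an exon there, and the IL11 stretch is chr19:55370464-55370713 on the minus strand.
IL6: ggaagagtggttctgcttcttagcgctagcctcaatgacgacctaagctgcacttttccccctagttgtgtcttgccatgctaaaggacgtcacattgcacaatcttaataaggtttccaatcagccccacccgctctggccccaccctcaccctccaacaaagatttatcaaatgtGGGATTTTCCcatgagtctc
IL11: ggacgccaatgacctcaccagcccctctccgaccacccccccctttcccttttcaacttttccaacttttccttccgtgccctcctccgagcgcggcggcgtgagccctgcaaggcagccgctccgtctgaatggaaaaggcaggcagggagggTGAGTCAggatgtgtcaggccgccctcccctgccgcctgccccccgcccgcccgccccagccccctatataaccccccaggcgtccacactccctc
The IL6 stretch held the kappa B letters GGGATTTTCC, which begin 73 bases before the start, and no match to the other motifs. IL11 had 1 match, the AP-1 letters TGAGTCA at 96 bases before the start. Of the other 6 members in the table, LIFR had the STAT letters TTCATCGAA and TTCCTTGAA, each before 1 of its 3 starts. The other 5 had no match in the windows searched. Those of SOCS3 miss the bases just before its GENCODE start, which were not searched. Those of IL6R, IL6ST, OSMR and STAT3 run into the gene as GENCODE places it. The windows of IL6 and LIFR, and a window of SOCS3, lie wholly inside the gene as GENCODE places it. The bases just before the GENCODE starts of IL6 and LIFR were therefore not searched either. A site outside the windows would not have been seen. Among all 35116 promoters of the table, 5.21% held a kappa B match, 6.57% an AP-1 match and 6.57% a STAT match in a window of this length. These matches are descriptions of the letters, and binding was not measured.

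IL6R, the receptor chain that binds IL6 (ENSG00000160712, chromosome 1, 154405193 to 154469450, plus strand), was lower in the DDR1 group without passing the test. Controls held 47.4, 30.9, 14.3 and 39.8 CPM and DDR1 libraries 14.5, 18.9, 24.4 and 22.9 CPM. The DDR1 libraries were all below 3 of the 4 controls, and control replicate 3 was the lowest of all. Means of 33.1 ± 14.2 CPM (control) and 20.2 ± 4.41 CPM (DDR1; SD, n = 4) gave a log2 fold change of -0.71 (SE 0.34, unadjusted edgeR p = 0.0613, adjusted p = 0.9998, exact permutation p = 0.2). With any 1 library left out the log2 fold change ran from -0.96 to -0.48. The -0.96 was without control replicate 3, the control that went against the direction. A larger difference was bound to follow there (edgeR adjusted p = 0.9515). Leaving out the 2 controls of lane 7 gave -0.40.

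LIFR, the receptor of LIF (ENSG00000113594, chromosome 5, 38474963 to 38608354, minus strand), had a higher mean in the DDR1 group, also without passing. Controls held 21.8, 13.6, 11.5 and 51.9 CPM and DDR1 libraries 35.1, 25.4, 36.2 and 42.0 CPM. The DDR1 libraries all lay above control replicates 1, 2 and 3, and control replicate 4 was the highest of all. Means of 24.7 ± 18.7 CPM (control) and 34.7 ± 6.85 CPM (DDR1) gave a log2 fold change of 0.49 (SE 0.44, unadjusted edgeR p = 0.288, adjusted p = 0.9998, exact permutation p = 0.229). Without control replicate 4 it was 1.15 with an unadjusted p of 0.00319 and an adjusted p of 0.9999, and without the 2 controls of lane 7 it was 0.15. The ligand LIF and its receptor gene LIFR therefore had fold changes of opposite sign in the same tumours, and neither was called. LIFR overlaps its antisense gene LIFR-AS1, at 0.928 CPM.

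IL6ST, the gp130 chain used by all these cytokines (ENSG00000134352, chromosome 5, 55935095 to 55994993, minus strand), showed little difference between group means. Controls held 284, 265, 101 and 278 CPM and DDR1 libraries 151, 279, 250 and 186 CPM. Control replicate 3 and DDR1 replicates 1 and 4 were the 3 lowest, the same 3 libraries as for IL6. Its log2 fold change was -0.10 (SE 0.33, unadjusted edgeR p = 0.769, exact permutation p = 0.886) and ran from -0.35 to 0.04 with 1 library left out. OSMR, which pairs with gp130 for oncostatin M (ENSG00000145623, chromosome 5, 38845858 to 38945596, plus strand), held 118, 79.0, 51.4 and 133 CPM in controls. In DDR1 libraries it held 62.6, 100, 185 and 84.3 CPM. Its lowest libraries were control replicate 3 and DDR1 replicate 1, and its log2 fold change was 0.18 (SE 0.38, unadjusted edgeR p = 0.645, exact permutation p = 0.771). The sign turned without DDR1 replicate 3, to -0.21, and without control replicate 3, to -0.03. OSMR shares 229 exon bases with RICTOR on the other strand, which held 176 CPM, so part of its count is uncertain.

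STAT3, the transcription factor at the end of the pathway (ENSG00000168610, chromosome 17, 42313324 to 42388568, minus strand), was the steadiest member. Controls held 241, 235, 251 and 190 CPM and DDR1 libraries 247, 226, 207 and 238 CPM, so the highest library was 1.32-fold above the lowest. Means were 229 ± 27.2 and 229 ± 17.4 CPM, and the log2 fold change was 9.37e-05 (SE 0.15, unadjusted edgeR p = 0.9995, exact permutation p = 0.971). Transcript levels do not report phosphorylation, through which STAT3 is switched on. SOCS3, which STAT3 induces and which inhibits the receptor complex (ENSG00000184557, chromosome 17, 78356778 to 78360077, minus strand), held 53.2, 29.3, 46.6 and 46.4 CPM in controls and 28.0, 31.7, 29.5 and 77.0 CPM in DDR1 libraries. DDR1 replicate 4 was the highest of all 8, while the other 3 DDR1 libraries lay with control replicate 2 at the low end. Its log2 fold change was -0.08 (SE 0.35, unadjusted edgeR p = 0.823, exact permutation p = 0.6). With any 1 library left out it ran from -0.55 to 0.07. The -0.55 was without DDR1 replicate 4, so a lower value was bound to follow there (edgeR adjusted p = 0.9996). DDR1 replicate 4 also had the highest summed level of 14 handling stress and immediate early genes. It was 1450 CPM there and 650 to 1110 CPM in the other 7 libraries. Of these 14 genes 12 were higher in the DDR1 group (median log2 fold change 0.29), beside 9383 of all 18973 genes tested. At an unadjusted edgeR p under 0.05 stood 1 of them, FOS, beside 4.17% of all genes tested. The part of these genes in the SOCS3 level was not tested.

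**Figure D3:**
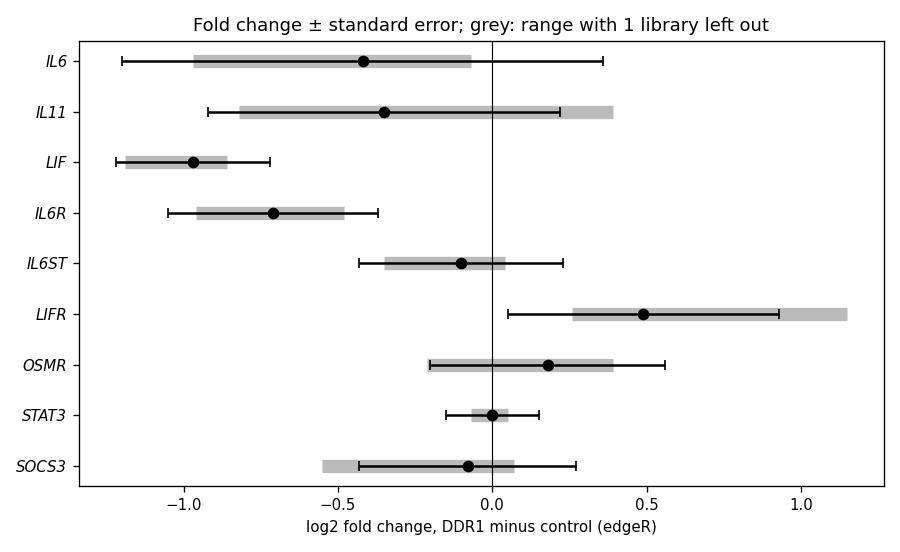
Log2 fold change of DDR1 over control (horizontal axis, edgeR) for the 9 members, with black points and bars for the estimate ± standard error and grey bars for the range with 1 library left out. Both bars of LIF lie left of 0, at -0.97 ± 0.25 and from -1.19 to -0.86. Both bars of IL6R also lie left of 0 and both of LIFR right of 0. Those of IL11, IL6ST, OSMR, STAT3 and SOCS3 span 0, and for IL6 only the black bar does.

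Around the members, 64 further genes of the pathway were read from 5 lists, and 52 of them had enough counts to be tested. With edgeR, 0 of the 52 passed over all genes, 1 had an unadjusted p under 0.05 beside 4.17% of all genes tested, 24 were higher and 28 lower, and their median log2 fold change was -0.00447. Of 10 kinases, other STATs and shedding proteases, 5 were higher and 5 lower with a median of 0.01. STAT5B, a STAT of growth factor signalling, was that 1 gene and also did not pass, at 39.2 ± 4.09 CPM (control) and 51.7 ± 10.3 CPM (DDR1), with a log2 fold change of 0.40 (unadjusted edgeR p = 0.0465, exact permutation p = 0.0857). The kinase JAK1, which gp130 uses, held 242 ± 44.7 and 220 ± 31.1 CPM.

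Other ligands and receptors had 8 of 12 genes tested, 3 higher and 5 lower, with a median of -0.08. IL11RA, the receptor chain of IL11, held 10.8 ± 2.35 and 10.8 ± 1.51 CPM. Of the negative regulators, 8 of 9 were tested, 4 higher and 4 lower, with a median of 0.04. Their most abundant gene per length, the phosphatase PTPN11, held 218 ± 36.8 and 233 ± 12.7 CPM. The 18 STAT3 target genes were all tested, 10 higher and 8 lower, with a median of 0.03. TIMP1, a metalloproteinase inhibitor and the highest of them per length, held 224 ± 28.4 and 278 ± 183 CPM, and DDR1 replicate 3 alone held 537. Acute phase genes, which the liver makes in response to IL6, had 8 of 15 genes tested, 2 higher and 6 lower, with a median of -0.23. C3, a complement component, was their highest per length at 211 ± 99.9 and 162 ± 105 CPM (log2 fold change -0.39, unadjusted edgeR p = 0.47, exact permutation p = 0.429). The lists of STAT3 targets and negative regulators thus had medians within 0.05 of that of all genes tested.

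**Figure D4:**
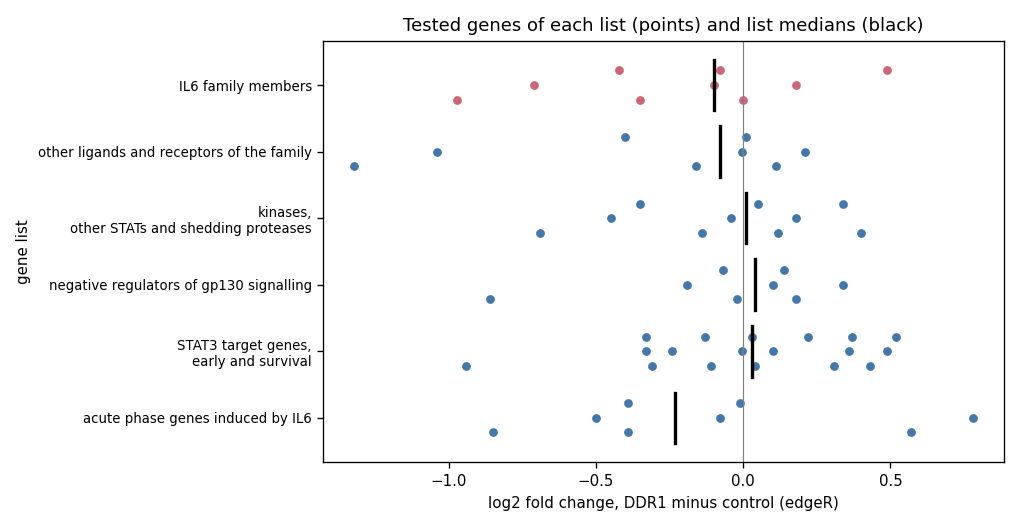
Log2 fold change of DDR1 over control (horizontal axis, edgeR) for the tested genes of 6 lists (rows). Points are genes, spread vertically for legibility, and black lines are list medians, which lie between -0.23 for the acute phase genes and 0.04 for the negative regulators.

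The members differed in how much they varied across the 8 libraries. The SD of log2 CPM was 1.42 for IL6, 0.81 for IL11, 0.77 for LIFR and 0.14 for STAT3, beside a median of 0.39 over all genes tested. Among the 36 pairs of members, log2 CPM of IL6ST had a Pearson correlation of 0.78 with OSMR, 0.76 with IL6R and 0.71 with IL6, and Spearman values of 0.64, 0.76 and 0.71. IL11 and SOCS3 had 0.70 (Spearman 0.86), and OSMR and STAT3 had -0.78 (Spearman -0.81). These are descriptions over 8 libraries that share scaling and tumour makeup. Control replicate 3 was the lowest library for 4 of 9 members, and DDR1 replicate 1 was among the 3 lowest for 7 of 9. The summed level of 10 fibroblast markers, counted as human genes, was low in the same 3 libraries as IL6 and IL6ST. It was 26.6 CPM in control replicate 3, 17.2 in DDR1 replicate 1 and 16.5 in DDR1 replicate 4. In the other 5 libraries it was 50.5 to 135 CPM. Of the markers, DCN and LUM had at most 10 counts in any library, while THY1 had 14 to 987, COL3A1 1 to 846, PDGFRA 6 to 448 and COL1A1 116 to 352. THY1, which other cells also express, had a mean of 34.8 ± 23.9 CPM (control) and 9.14 ± 6.03 CPM (DDR1; log2 fold change -1.92, unadjusted edgeR p of 0.0378). The tumours grew in mice, so these counts of human genes do not measure the host's own fibroblasts. Whether mouse reads entered the levels of IL6, IL6ST, IL6R and LIF was not tested.

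**Figure D5:**
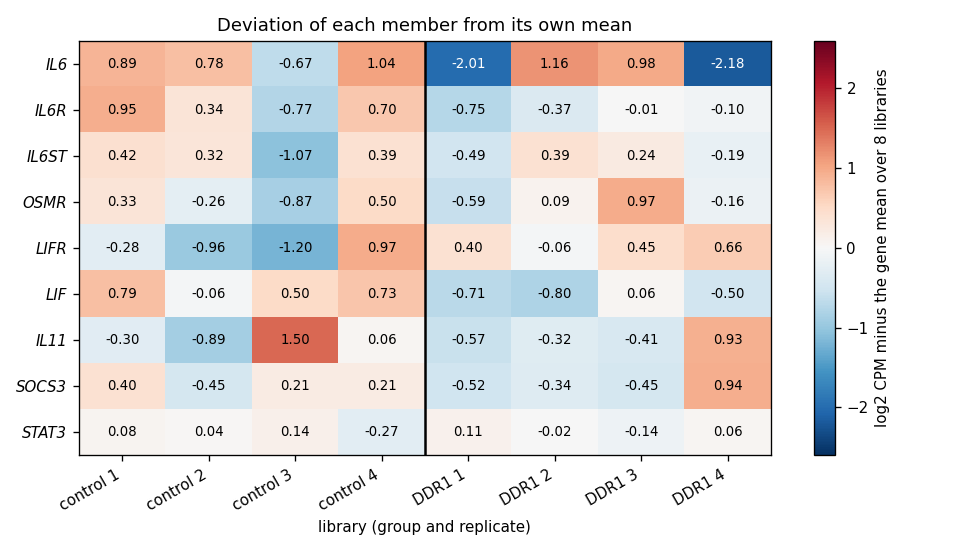
Deviation of log2 CPM of each member (rows) from its own mean over the 8 libraries (columns, 4 control and 4 DDR1, parted by the black line), with the colour scale in log2 units. IL6 stands at -2.01 and -2.18 in DDR1 replicates 1 and 4, IL6ST at -1.07 and IL11 at 1.5 in control replicate 3, and STAT3 stays within -0.27 to 0.14.

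For each member, the 2 genes with the most similar log2 CPM over the 8 libraries were taken from all tested genes with a mean of at least 5 CPM, about which no p is given because they were the highest of 11893 or more correlations. IL6ST was closest to PLCB1, a phospholipase C (0.991), and PLA2G12A (0.976). OSMR was closest to PTPRK, a receptor tyrosine phosphatase, with 0.977 and the same order of the 8 libraries, and then to CCDC92 (0.961). IL6 was closest to SEPT11, a septin (0.982), and ADAMTS3, a procollagen protease (0.981). LIF came closest to NOTCH2NLA (0.958), a gene with near-identical copies whose count is uncertain, and STARD13 (0.944). SOCS3 was nearest to RANBP3 and PPP1R15A, a gene induced in the integrated stress response (0.977 each). IL11 was nearest to the pseudogene GTF2IP4 (0.986) and DAXX (0.979), and LIFR to SLC20A2, a phosphate transporter (0.982), and TTC7B (0.951). For IL6R the nearest were RHEX (0.955) and UVRAG (0.953), and for STAT3 KIAA0895 (0.975) and MLX (0.968).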

How the data were processed

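RNA was taken from 4 control and 4 DDR1 tumours and sequenced after poly-T selection as paired ends of 150 bp, per the labels' protocols. RSEM 1.3.1, STAR 2.7.5, FastQC 0.11.9, Trim Galore 0.6.4 and build GRCh38 are named, without roles, per the submitters' processing notes. The sources used here do not give the annotation, the settings or whether mouse reads were removed. The authors deposited expected counts per gene (estimated counts, as RSEM gives), which were rounded to whole numbers, and TMM-normalized values on a log2 scale (value minus log2 count had an SD of at most 0.00508 within a library). The 8 files of single libraries repeat the log2 table.

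Identifiers were matched to GENCODE release 29 (58039 of 58302), which gave symbols, 1-based coordinates and exon lengths. Genes were kept by filterByExpr (minimum count 10), scaled by TMM, and compared by quasi-likelihood in edgeR 4.0.16 (R 4.3.3, with limma 3.58.1) over all 8 libraries without covariates, with Benjamini-Hochberg adjusted p under 0.05 called. The standard error (SE) is the size of the log2 fold change over the square root of F. Per-library log2 CPM had a prior count of 2. The test was checked on simulated data. Alternatives included DESeq2 1.42.0, limma-voom, limma-trend on the log2 values, other scalings and filters, and leaving libraries out. Groups came from the condition label, and replicate numbers follow accession order and pair nothing.

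Named genes were the 9 members, DDR1, from each of 5 pathway lists up to 3 genes with the smallest unadjusted p under 0.05 and the most abundant per length, and 2 genes most like each member. Of the genes this rule names, 2 are not reported here. JAK1, IL11RA, RICTOR, OSM and the marker genes were named after their values were seen. Members and lists were chosen with earlier results of these data known.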

Additional observations from a re-analysis of the deposited data

Results flagged for a closer look

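In groups of 4 libraries, a library was singled out when its gap to the nearest other, divided by the whole range of the group in log2 CPM, was above Dixon's critical value at the 95% level. Of 18 groups tested (9 members in 2 groups), 4 had such a library, where chance gives about 1 in 20 groups and 5.63% of the groups over all genes tested had one. The 4 are not independent, since 2 libraries carry them all and the levels of the members are correlated. Control replicate 3 stood apart with low IL6 (ratio 0.848, 1.29 CPM) and low IL6ST (ratio 0.932, 101 CPM). DDR1 replicate 4 stood apart with high IL11 (ratio 0.837, 4.95 CPM) and high SOCS3 (ratio 0.878, 77.0 CPM).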

How the results depend on the processing

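Of the 19 alternatives, 18 called 0 genes over all genes tested, as the main test did, and DESeq2 called 15; no member and no gene of the 5 pathway lists was called under any of them. At an unadjusted p under 0.05 stood 791 genes in the main test, 501 to 1215 with 1 library left out and 1569 with no filter. LIF kept its direction and an unadjusted p under 0.05 in all 19, with log2 fold changes from -1.19 to -0.86. IL6R (-0.96 to -0.40), LIFR (0.15 to 1.15), STAT5B (0.29 to 0.50) and C3 (-0.72 to -0.07) kept their direction in all 19. IL6 kept it in the 18 that test it (-1.05 to -0.07); the filter of 5 CPM in 4 libraries drops IL6 and IL11. DDR1 itself had a log2 fold change of 1.31 without the controls of lane 7, where its unadjusted p was 0.0653, and 1.05 to 1.79 with 1 library left out.

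IL11, IL6ST, OSMR, SOCS3, STAT3, TIMP1 and PTPN11 changed sign under some alternatives, and the cause was not tested. The genes most like each member were not run under them. With 1 library left out, IL11 ran from -0.82 to 0.39, IL6ST from -0.35 to 0.04, OSMR from -0.21 to 0.39, SOCS3 from -0.55 to 0.07, STAT3 from -0.07 to 0.05 and TIMP1 from -0.22 to 0.53. Without the controls that name no lane, IL11 was 0.64, SOCS3 0.01, STAT3 -0.05 and PTPN11 -0.0078. Without the controls of lane 7, IL6ST was 0.22. No paired analysis was possible because the replicate numbers follow accession order. STAT3 was -0.0028 with upper quartile scaling and -0.0078 with the filter of 5 CPM. IL6 had as few as 8 counts in a library, which limits the precision of its value there.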

Other observations

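The level of LIFR relative to IL6R, a ratio within each library that does not depend on scaling, was computed after the values of both genes were seen, so no test is given. It was 0.460, 0.439, 0.802 and 1.3 in control replicates 1 to 4 and 2.41, 1.34, 1.49 and 1.83 in DDR1 replicates 1 to 4. This pair, 1 of 36 pairs of members, joins a gene with a higher mean in the DDR1 group to one with a lower mean. A difference in the ratio was therefore bound to follow. Means were 0.751 ± 0.404 (control) and 1.77 ± 0.475 (DDR1; SD, n = 4). The groups did not overlap, by a small margin between control replicate 4 and DDR1 replicate 2. Such a separation was not particular to this pair. The ratios of LIFR to LIF, OSMR to LIF and OSMR to IL6R also parted the groups. How often pairs among all genes separate the groups was not computed. Control replicate 4, which had the most LIFR, and control replicate 3, which had the least IL6R, were the 2 controls nearest the DDR1 group. Both share a title prefix and name no lane.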
